A study of Homo sapiens with 6 samples.

Results

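The RAB genes of RBE cells are described here, as 73 of the 16200 genes in the deposited table. They were taken as every row whose symbol starts with RAB followed by a digit. Of these, 63 encode RAB GTPases. Another 8, whose names hold GAP or IP (FIP included), encode RAB effectors or regulators and were kept as a second group. The names of 2 more (RAB3IL1 and RAB5IF) hold neither, and these genes encode no GTPase. They were counted apart, although RAB3IL1 is an exchange factor of RAB3A and so a regulator too. RBE is a human cell line, long established, from a cancer of the bile ducts within the liver (intrahepatic cholangiocarcinoma). Poly(A)-selected RNA was sequenced in 3 libraries labelled NC, the reference group, and 3 labelled sgKCNQ3, a name that usually stands for a single guide RNA against KCNQ3, a potassium channel subunit. No other treatment, allele or time is given for either group. Whether the guide acted through a nuclease or a repressor, whether the cells were a clone or a pool, and whether each library had its own culture are left unsaid in the labels. The spread that the p-values measure is therefore that between these 6 samples, and it may be technical.

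RAB proteins are small GTPases that mark membranes. Bound to GTP, each recruits its own effectors (tethers, motors and sorting proteins) and so directs a vesicle to its target. Guanine nucleotide exchange factors switch a RAB on, GTPase-activating proteins (GAPs) switch it off, and GDI extracts it from the membrane. In epithelial cells such as those of bile ducts, RAB8, RAB10 and RAB11 serve apical delivery and cilium growth, RAB27 and RAB3 serve the docking of secretory vesicles, RAB5 and RAB7 mark early and late endosomes, and RAB1, RAB2 and RAB6 serve traffic through the Golgi.

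A RAB holds to its membrane by lipid (geranylgeranyl) groups on cysteines at its carboxyl end. The ends of the coding sequences set most, but not all, of the GTPases apart from the other RAB-named genes. In the longest coding transcripts of GENCODE release 29, 60 of the 63 GTPase genes had a cysteine codon among the last 5 codons before the stop, 48 of them at least 2, and 3 (RAB34, RAB6C and RAB6D) had none. Of the 8 effector genes and the 2 genes counted apart, 0 had such a codon. The last 24 coding bases, stop codon included, are shown for 6 GTPases, with near relatives, and for an effector gene. The difference of these 6 between the groups passed the test in the main analysis and in all 15 alternatives counted below. Cysteine codons are in capitals.
RAB27B: ccagagaagaaaTGTatcTGCtag
RAB27A: gagaaaggggcaTGTggcTGTtga
RAB3B: ctgcagcagaacTGCtcaTGCtag
RAB8B: ttctttcgtTGCtcgctactttga
RAB8A: tttttccgaTGTgttcttctgtga
RAB31: caagccagccgccggTGCTGTtga
RAB22A: gagccaaagcggagcTGCTGCtga
RAB15: tcttcgaaaaccTGCtggTGCtga
RAB43: gaaggctggggcTGCgggTGCtga
RAB11FIP2: gctggcaaattctctaacagttaa
RAB27B, RAB27A, RAB3B, RAB15 and RAB43 ended in 2 cysteine codons parted by another codon, RAB31 and RAB22A in 2 adjoining ones, and RAB8B and RAB8A in a single cysteine codon followed by 3 others. RAB11FIP2 held none in this stretch.

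Total counts were 15601283 to 16089500 per library. KCNQ3 mRNA had 256, 257 and 252 counts in the NC libraries, 222, 206 and 191 in the sgKCNQ3 ones. It fell, with a log2 fold change of -0.33 (SE 0.0841, edgeR adjusted p 0.00446), and no sgKCNQ3 library reached an NC library. All 12 cholangiocyte markers examined had a mean over the 6 libraries of at least 1 TPM (a level scaled for gene length and library), CDH1 only through sgKCNQ3 (0.763 TPM in NC and 1.46 TPM in sgKCNQ3), with a summed level of 4531 to 4651 TPM in NC and 5245 to 5312 TPM in sgKCNQ3. Of other cell types, 1 of 6 hepatocyte markers (SERPINA1), 1 of 6 fibroblast, 0 of 5 endothelial and 1 of 5 leukocyte markers reached that level. The rise of the cholangiocyte marker sum in sgKCNQ3 went with the group, and its part in the RAB values was not tested. In bulk RNA, fewer cells of a type and less RNA per cell cannot be told apart.

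RBE cells held mRNA for most of the family, with RAB5C at the highest level. The deposited TPM values allow levels to be compared between genes. RAB5C, the RAB5 form with the highest level and a regulator of early endosome fusion, stood first at 281 ± 9.20 TPM in NC and 285 ± 12.9 TPM in sgKCNQ3 (SD, n = 3 each). A gene on the same strand (AC099811.2) covers 28.8% of the exon bases of RAB5C. RAB7A, the late endosome and lysosome RAB, followed at 245 ± 1.21 and 237 ± 3.27 TPM, and RAB1B, which acts between endoplasmic reticulum (ER) and Golgi, at 213 ± 7.08 and 202 ± 17.0 TPM. RAB1A, RAB10 and RAB6A came next in NC, at 144.8 ± 3.33, 137 ± 0.995 and 108 ± 1.08 TPM, and RAB10 and RAB1A were within their spread of each other in sgKCNQ3 (154.7 ± 5.27 and 152.9 ± 0.818 TPM). RAB6A and the next gene, RAB14 (106 ± 4.19 TPM), were within their spread in NC. The first 6 genes made up 51.1% of the summed GTPase TPM in NC and 49.9% in sgKCNQ3. The summed GTPase level was 2210 ± 19.5 TPM in NC and 2307 ± 45.9 TPM in sgKCNQ3. In CPM (the count scaled to a common library size with TMM factors, with no correction for gene length), the NC libraries summed to 3590, 3554 and 3592 and the sgKCNQ3 libraries to 3563, 3526 and 3526. The TPM sums of the groups did not overlap and the CPM sums did, so the summed level gave no direction common to both scales.

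**Figure D1:**
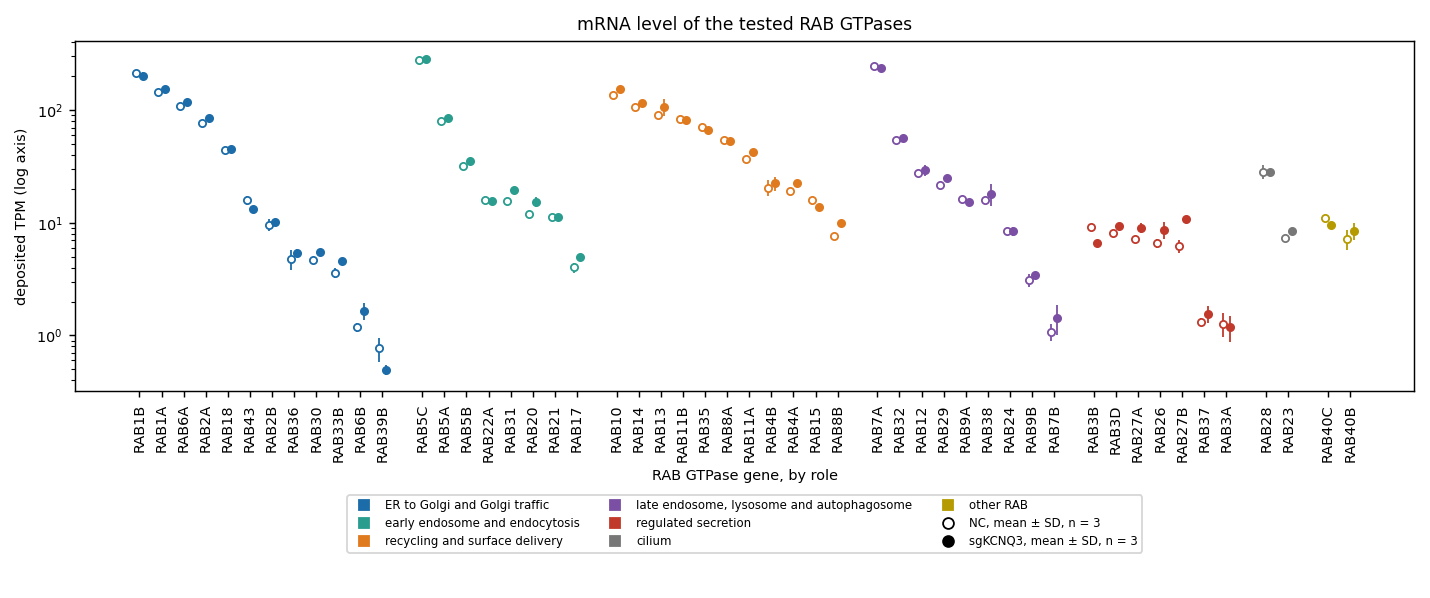
Deposited TPM of the 51 tested RAB GTPases on a log axis, grouped by role and sorted within a role by the NC mean, with open points for NC and filled points for sgKCNQ3 (mean ± SD, n = 3). RAB5C, RAB7A and RAB1B stand highest at 202 to 285 TPM, and the secretion RABs, RAB27B at 6.21 TPM in NC among them, lie far lower.

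At the bottom of the range, 12 GTPases had too few reads to be tested. They were RAB6C, RAB6D, RAB19, RAB25, RAB33A, RAB34, RAB39A, RAB40A, RAB40AL, RAB41, RAB42 and RAB44, and the largest count any of them had in a library was 8.09. RAB25, an epithelial relative of RAB11, had 1 read in NC replicate 3 and none in the other libraries. RAB6C and RAB6D share long stretches with RAB6A (512 and 464 common runs of 50 transcript bases) and RAB40AL with RAB40A (489), so the counts of these copies are uncertain.

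Of the 63 GTPase genes, 51 passed the filter on low counts, and 18 of these (35.3%) differed between the groups, 9 higher and 9 lower in sgKCNQ3. Over all tested genes the share called was 29.1%, with 14.0% higher and 15.1% lower, so the RAB share lay near the background. The median log2 fold change of the 51 was 0.04, and -0.007 over all genes. The called members moved little: 15 of the 18 changed by less than 0.5 on the log2 scale, and their median size was 0.27, against 0.23 for all called genes. CPM values of the groups did not overlap for 26 of the 51, the 18 called ones included, against 41.7% of all tested genes. RAB27B, RAB3B, RAB43, RAB31, RAB15 and RAB8B were the 6 GTPases called in edgeR and in every one of the 15 alternative analyses, and no called GTPase changed direction in any of them. The balance of directions did depend on the scale. It was 9 higher and 9 lower with TMM scaling, 14 and 7 with library size alone, 5 and 9 with length and GC trends removed, and 15 and 3 on log2(TPM + 1). Over all genes these splits were 1763 and 1895, 2324 and 1280, 1321 and 2003, and 2588 and 613.

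**Figure D2:**
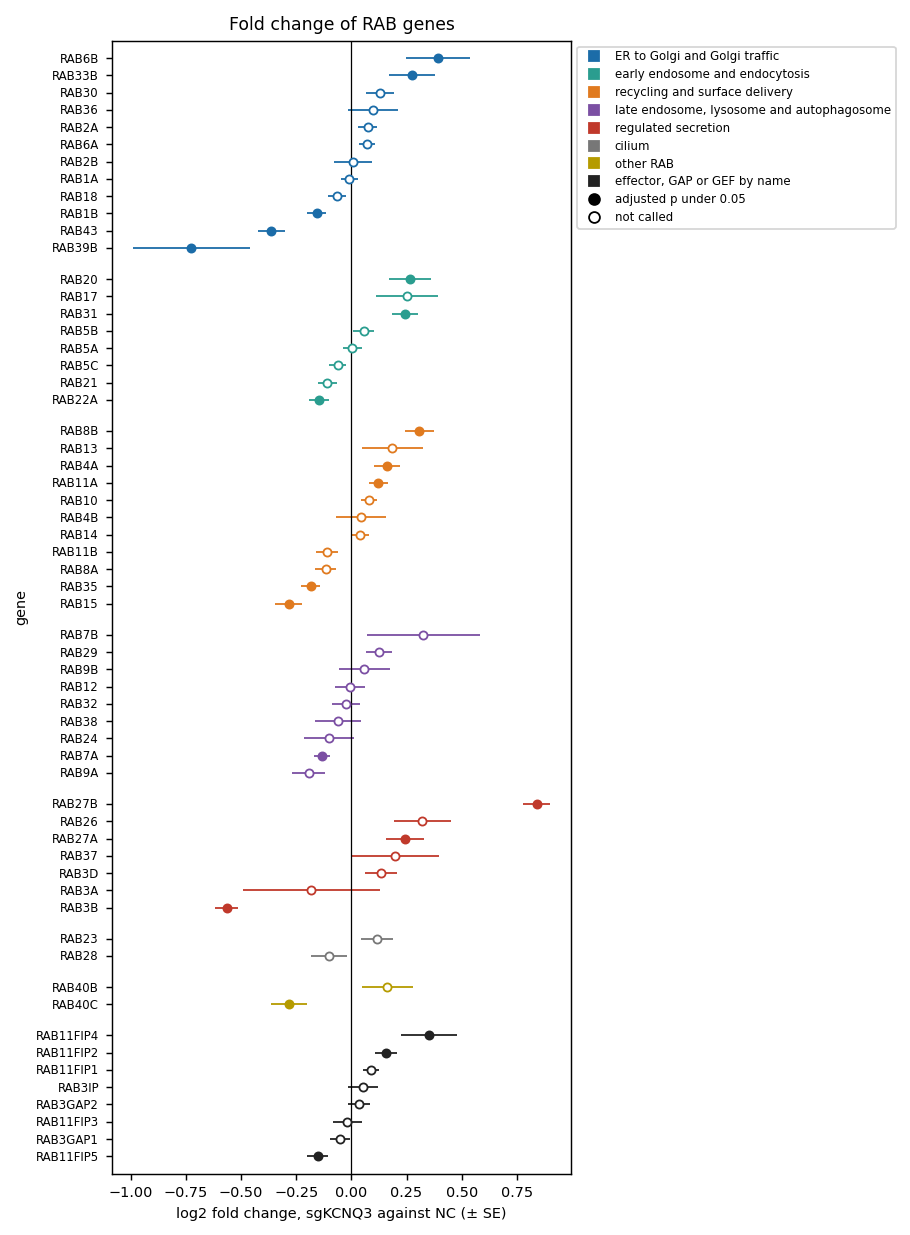
Log2 fold change of sgKCNQ3 against NC (edgeR, ± SE) for 51 RAB GTPases and 8 RAB effectors, grouped by role, with filled points for an adjusted p under 0.05. RAB27B lies at 0.84 and RAB3B at -0.57. Called genes of both directions occur in the Golgi, early endosome, recycling and secretion groups and among the effectors. With uncalled genes included, both signs occur in the remaining groups as well.

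The RABs of regulated secretion held the largest rise and the most significant fall of the family. RAB27B, which docks secretory granules and multivesicular endosomes at the plasma membrane, rose in sgKCNQ3, while RAB3B, a granule RAB of the RAB3 branch, fell. Of 7 tested members 2 were higher, 1 was lower and 4 were not called. RAB27B (Entrez 5874, chr18:54717860-54895516, plus strand, GRCh38) was 23.2, 21.3 and 23.3 CPM in NC replicates 1 to 3 and 39.7, 40.8 and 40.8 CPM in sgKCNQ3 replicates 1 to 3. All 3 sgKCNQ3 libraries stood well above all 3 NC libraries, and the groups did not approach each other. The log2 fold change of RAB27B was 0.84 (SE 0.0626, edgeR adjusted p 2.99e-10), an increase of 78.9%, and it lay between 0.80 and 0.86 with any library left out. RAB3B (Entrez 5865, chr1:51907956-51990764, minus strand) was 73.9, 81.1 and 73.4 CPM in NC and 49.8, 53.5 and 51.1 CPM in sgKCNQ3. Each sgKCNQ3 library lay below each NC library. Its log2 fold change was -0.57 (SE 0.0522, adjusted p 1.3e-08), so that RAB3B fell by 32.4%.

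RAB27A, the RAB of melanosome and lytic granule transport and the nearest relative of RAB27B, rose less. It was 15.6, 14.4 and 15.9 CPM in NC and 16.8, 20.7 and 16.9 CPM in sgKCNQ3. The groups did not overlap, but sgKCNQ3 replicate 2 stood above the other 2 libraries of its group. The log2 fold change of RAB27A was 0.24 (SE 0.0878, adjusted p 0.0383), and the call was lost without sgKCNQ3 replicate 2 or any of the NC libraries, in DESeq2 and with transcript length and GC trends removed (0.20, adjusted p 0.0781). RAB26, a RAB of secretory granule maturation, had a log2 fold change of 0.32 (adjusted p 0.0619), RAB3D, on exocrine granules, 0.13 (adjusted p 0.175), RAB37 0.20 (adjusted p 0.489) and the neuronal RAB3A -0.18 (adjusted p 0.694). RAB3A and RAB37 were low, at about 1.03 and 2.05 CPM in NC. The summed CPM of the class overlapped between the groups, at 141.9, 148.2 and 143.5 for NC against 138.3, 151.2 and 143.2 for sgKCNQ3.

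The ratio of RAB27B to RAB3B, which restates both calls without the library scaling, went with the groups. RAB27B had 0.298 ± 0.0302 counts for each RAB3B count in NC and 0.786 ± 0.0204 in sgKCNQ3 (SD, n = 3). By library the ratio was 0.314, 0.263 and 0.317 for NC and 0.797, 0.763 and 0.799 for sgKCNQ3, with no overlap. RAB3D stood at 0.280 ± 0.0102 counts per RAB3B count in NC and 0.453 ± 0.0109 in sgKCNQ3, while the ratios of RAB3B and of RAB3D to the low RAB3A overlapped between the groups. On the TPM scale, which corrects for gene length, RAB3B led the class in NC (9.14 ± 0.513 TPM, RAB27B 6.21 ± 0.767 TPM), and RAB27B led it in sgKCNQ3 (10.7 ± 0.333 TPM, RAB3B 6.59 ± 0.175 TPM). The coding sequences of RAB27A and RAB27B were identical at 66.9% of aligned bases and those of RAB3B and RAB27B at 52.6%. No run of 50 bases was common to either pair.

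The promoter windows of RAB27B and RAB3B are shown because these genes made the most significant rise and fall of the family. The windows are from RefSeq on GRCh38.p14 and run from 250 bases before to 50 bases after a start, 5′ to 3′ on the gene's strand. Matches to TGANTCA, the core site of AP-1 (the FOS and JUN factors that act below ERK signalling), are in capitals. Its reverse complement reads the same, so both strands are searched at once. RAB27B has 2 starts, at chr18:54717607-54717906 and chr18:54828227-54828526, and RAB3B 1, at chr1:51990651-51990950 on the minus strand.
RAB27B first start: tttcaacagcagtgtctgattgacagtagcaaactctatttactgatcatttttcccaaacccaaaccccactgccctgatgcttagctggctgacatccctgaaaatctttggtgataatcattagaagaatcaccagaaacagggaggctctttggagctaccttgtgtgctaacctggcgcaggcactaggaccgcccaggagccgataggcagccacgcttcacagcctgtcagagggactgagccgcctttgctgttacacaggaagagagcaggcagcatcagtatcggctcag
RAB27B second start: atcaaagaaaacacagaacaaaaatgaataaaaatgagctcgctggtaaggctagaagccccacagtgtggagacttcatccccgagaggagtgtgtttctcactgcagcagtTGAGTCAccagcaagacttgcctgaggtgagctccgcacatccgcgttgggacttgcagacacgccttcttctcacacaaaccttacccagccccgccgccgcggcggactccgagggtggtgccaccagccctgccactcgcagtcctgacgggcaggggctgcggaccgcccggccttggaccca
RAB3B: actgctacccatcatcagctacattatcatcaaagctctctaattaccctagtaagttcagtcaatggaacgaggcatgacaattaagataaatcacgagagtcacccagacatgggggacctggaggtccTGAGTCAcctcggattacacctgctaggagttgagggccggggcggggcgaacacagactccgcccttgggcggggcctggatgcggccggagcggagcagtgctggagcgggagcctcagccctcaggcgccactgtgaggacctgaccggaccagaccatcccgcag
The first RAB27B window held 0 matches, the second 1 and the RAB3B window 1. TGANTCA was present in 7.71% of 35116 RefSeq promoter windows of the same length. Among the RAB genes, 58 were matched by symbol with 81 windows, of which 8 windows of 6 genes (RAB13, RAB27A, RAB27B, RAB34, RAB3B and RAB5B) held it. RAB27B and RAB3B moved in opposite directions, and which start was used cannot be read from gene-level counts. A match is a string of letters and was not tested as a site. Other motifs searched on both strands were CGGAAG (the ETS core, in 19.5% of all windows and 21 of the 81), GGGCGG (the SP core, 45.0% and 60 of 81) and TCACGTG (bound by TFEB and TFE3, 3.71% and 6 of 81).

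The RABs of recycling and surface delivery changed in both directions, within pairs of close relatives as well. Of 11 tested members 3 were higher (RAB8B, RAB4A and RAB11A), 2 lower (RAB15 and RAB35) and 6 not called. RAB8B, a relative of the RAB8A that delivers cargo to the apical surface and the cilium, was 23.6, 22.0 and 23.1 CPM in NC and 29.5, 27.4 and 28.2 CPM in sgKCNQ3. The groups were clearly apart, and the log2 fold change was 0.31 (SE 0.0668, adjusted p 0.00112). RAB8A itself was 83.3, 82.5 and 82.3 CPM in NC and 73.6, 82.3 and 72.8 CPM in sgKCNQ3, with a log2 fold change of -0.12 (adjusted p 0.0757). Its sgKCNQ3 replicate 2 lay just under the lowest NC library, and the other 2 well below. A gene on the opposite strand (AC008894.2) covers 37.8% of the exon bases of RAB8A. RAB15, an inhibitor of early endosome fusion that also acts in receptor recycling, was 32.9, 32.8 and 34.6 CPM in NC and 27.3, 27.4 and 27.7 CPM in sgKCNQ3. All 3 sgKCNQ3 libraries lay below NC, and RAB15 fell by 0.28 on the log2 scale (SE 0.0614, adjusted p 0.00113). RAB35, which drives fast recycling and cytokinesis, was 120.1 to 126 CPM in NC and 107 to 109 CPM in sgKCNQ3 and had a log2 fold change of -0.19 (SE 0.0413, adjusted p 0.00145). On log2(TPM + 1) RAB35 was at -0.10 (limma adjusted p 0.112) and no longer called. An antisense gene covers 14.8% of its exon bases.

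RAB11A, the main RAB of the recycling endosome, and RAB4A, of the fast recycling route, rose by small amounts. RAB11A was 115, 111 and 115 CPM in NC and 122, 120.3 and 129 CPM in sgKCNQ3, with no overlap and a log2 fold change of 0.12 (SE 0.0427, adjusted p 0.0322). RAB4A was 33.9, 35.3 and 33.7 CPM in NC and 36.8, 39.8 and 38.4 CPM in sgKCNQ3, also apart, with a log2 fold change of 0.16 (SE 0.0588, adjusted p 0.0420). Leaving out a library ended the call of RAB11A except for sgKCNQ3 replicate 2, and that of RAB4A for NC replicates 1 and 3 and sgKCNQ3 replicates 2 and 3, and both lost it in DESeq2 and with length and GC trends removed (RAB11A 0.04, adjusted p 0.533, and RAB4A 0.13, adjusted p 0.0891). SPHAR, a gene on the same strand, covers 19.6% of the exon bases of RAB4A. Of the members not called, RAB11B had a log2 fold change of -0.11 (adjusted p 0.104), RAB10 0.08 (adjusted p 0.0937), RAB14 0.04 and RAB4B 0.04. The same-strand genes MIA-RAB4B and RAB4B-EGLN2 cover 25.7% and 27.4% of the exon bases of RAB4B. RAB10, the member of the class with the highest level, was 304, 301 and 295 CPM in NC and 326, 313 and 314 CPM in sgKCNQ3, groups that did not overlap. RAB13, a RAB of tight junction assembly, was 52.8, 53.3 and 50.2 CPM in NC and 53.2, 72.2 and 52.5 CPM in sgKCNQ3. Its higher mean came from sgKCNQ3 replicate 2 alone, and its log2 fold change of 0.19 was not called (adjusted p 0.387). A gene on the same strand (AL358472.6) covers 24.8% of the exon bases of RAB13.

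Among the RABs of early endosomes and endocytosis, the RAB5 forms were not called and the RAB22 branch was. Of 8 tested members 2 were higher (RAB31 and RAB20), 1 was lower (RAB22A) and 5 were not called. RAB5A, RAB5B and RAB5C, which share the task of early endosome fusion, had log2 fold changes of 0.00 (adjusted p 0.958), 0.06 (adjusted p 0.415) and -0.06 (adjusted p 0.232). RAB31, also known as RAB22B, serves transport between the trans-Golgi network and endosomes. It was 38.1, 39.7 and 36.3 CPM in NC and 43.5, 47.0 and 44.7 CPM in sgKCNQ3, with the groups apart. Its log2 fold change was 0.24 (SE 0.0576, adjusted p 0.00237). RAB22A, its closest relative and a regulator of clathrin-independent cargo, was 92.1, 86.1 and 91.7 CPM in NC and 78.6, 84.5 and 80.7 CPM in sgKCNQ3. The highest sgKCNQ3 library lay just under the lowest NC library. RAB22A had a log2 fold change of -0.15 (SE 0.0464, adjusted p 0.0191), and of -0.29 (adjusted p 9.04e-06) with length and GC trends removed, but only -0.05 on log2(TPM + 1) (limma adjusted p 0.512). Its call was also lost in DESeq2, with library size scaling and without replicate 1 or 3 of either group.

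RAB20, linked to phagosomes and to the response to low oxygen, was 9.98, 9.60 and 9.65 CPM in NC and 12.3, 10.6 and 12.3 CPM in sgKCNQ3. Its sgKCNQ3 replicate 2 lay nearest to NC, and its log2 fold change of 0.27 (SE 0.0961, adjusted p 0.0382) was lost in DESeq2 and without each library in turn except sgKCNQ3 replicate 2. RAB21, which carries integrins into endosomes, was at -0.11 (adjusted p 0.0624), and at -0.27 (adjusted p 1.38e-05) with the trends removed. RAB17, an epithelial RAB of apical recycling, was at 0.25 (adjusted p 0.179).

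Of 9 tested RABs of late endosomes, lysosomes and autophagosomes 1 was called, RAB7A, and it was lower. RAB7A was 312, 312 and 306 CPM in NC and 285, 284 and 279 CPM in sgKCNQ3. The libraries of each group lay close together, and the gap between the groups was wider than the range within either. RAB7A fell by 0.13 on the log2 scale (SE 0.0357, adjusted p 0.00642), to 0.912 times its NC level. In TPM it was 245 ± 1.21 and 237 ± 3.27, a difference of -0.05 on log2(TPM + 1) that was not called (limma adjusted p 0.363). RAB9A, which serves transport from late endosomes to the Golgi, was 19.0, 19.1 and 18.7 CPM in NC and 17.0, 16.5 and 16.2 CPM in sgKCNQ3. Its groups did not overlap, and its log2 fold change of -0.19 just missed the threshold (adjusted p 0.0547). RAB29, a partner of the kinase LRRK2, was at 0.13 (adjusted p 0.111), RAB7B at 0.33 (adjusted p 0.360), RAB24 (44.8% of whose exon bases MXD3 shares) at -0.10, RAB38 at -0.06, RAB32 at -0.03, RAB12 at -0.01 and RAB9B at 0.06, none of them called. The class summed to 455 to 461 CPM in the NC libraries and 425 to 440 CPM in the sgKCNQ3 libraries, but to 391 to 398 TPM and 383 to 405 TPM, which overlapped. The mean CPM of the class was 459 and 432, of which RAB7A made up 309.95 and 283, about the whole of the difference.

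Of 12 tested RABs of ER to Golgi and Golgi traffic, 2 were higher (RAB33B and RAB6B), 3 lower (RAB43, RAB1B and RAB39B) and 7 not called. RAB43, which acts at the Golgi, was 42.3, 48.9 and 42.0 CPM in NC and 34.6, 34.9 and 34.2 CPM in sgKCNQ3. Every sgKCNQ3 library lay well under every NC library, and NC replicate 2 was the highest. The log2 fold change of RAB43 was -0.36 (SE 0.0627, adjusted p 1.14e-04). The readthrough gene ISY1-RAB43 covers 79.3% of the exon bases of RAB43, and the labels do not say how reads were divided between them. ISY1-RAB43 held 628.9, 669 and 677 counts in NC and 712, 543 and 753 in sgKCNQ3. The sum of both genes was 83.0, 91.1 and 85.3 CPM in NC and 79.4, 69.3 and 81.3 CPM in sgKCNQ3, which did not overlap either, though sgKCNQ3 replicate 3 came near the lowest NC library. The size of the RAB43 change is therefore uncertain.

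RAB1B, which brings ER vesicles to the Golgi, was 227, 241 and 233 CPM in NC and 218, 194 and 217 CPM in sgKCNQ3. sgKCNQ3 replicate 2 was the lowest library by far. The log2 fold change of RAB1B was -0.16 (SE 0.0436, adjusted p 0.00814), and the call was lost without that library or NC replicate 2, with length and GC trends removed (-0.07, adjusted p 0.144) and on TPM. RAB1A, which shares its task, was at -0.01, and CEP68, on the opposite strand, covers 22.9% of its exon bases. The other 3 calls of the class rested on few reads or lay near the threshold. RAB39B, a RAB of neuronal autophagy, had 31, 20 and 24 counts in NC and 17, 15 and 14 in sgKCNQ3 and a log2 fold change of -0.72 (SE 0.267, adjusted p 0.0424). RAB6B, the neuronal form of RAB6, was 4.54, 4.29 and 3.77 CPM in NC and 5.72, 4.56 and 6.26 CPM in sgKCNQ3, with sgKCNQ3 replicate 2 next to NC (log2 fold change 0.39, SE 0.144, adjusted p 0.0418). RAB33B, which binds the autophagy complex of ATG16L1, was 10.2, 7.89 and 8.95 CPM in NC and 10.9, 10.6 and 11.2 CPM in sgKCNQ3 (log2 fold change 0.27, SE 0.103, adjusted p 0.0474). Of the 15 alternatives, RAB6B lost its call in 10 and RAB33B in 7, and RAB39B lost it in 9 of the 14 that tested it. Leaving out a library ended the call of RAB6B except for sgKCNQ3 replicate 2, that of RAB39B except for NC replicate 2, and that of RAB33B for NC replicates 2 and 3 and sgKCNQ3 replicates 1 and 3. Genes on the opposite strand cover 29.3% of the exon bases of RAB1B (AP001107.2), 13.8% of those of RAB33B and 6.35% of those of RAB6B (SRPRB), and their reads cannot be told apart from those of the RABs. RAB6A, RAB2A, RAB2B, RAB18, RAB30 and RAB36 were not called, with log2 fold changes from -0.07 (RAB18) to 0.13 (RAB30).

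RAB40C, an adaptor of a ubiquitin ligase, fell by 0.28 on the log2 scale (SE 0.0829, adjusted p 0.0121). It was 16.7, 18.4 and 16.7 CPM in NC and 14.2, 15.1 and 13.3 CPM in sgKCNQ3, with the groups apart. With the trends removed it was at -0.21 (adjusted p 0.0604), and the call was also lost in DESeq2, on TPM and without NC replicate 2 or sgKCNQ3 replicate 3. RAB40B, its relative, was at 0.16 (adjusted p 0.305). The cilium RABs were not called: RAB23, which restrains Hedgehog signalling, was at 0.12 (adjusted p 0.231) and RAB28 at -0.10 (adjusted p 0.369). RAB28, the higher of the pair in TPM, was 26.8, 23.2 and 30.9 CPM in NC and 24.6, 26.3 and 24.5 CPM in sgKCNQ3, which overlapped. BAG2, on the other strand, covers 57.7% of the exon bases of RAB23.

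Of the 8 RAB-named effectors and regulators, all were tested and 3 (37.5%) were called, against 29.1% of all tested genes. These 3 belong to the RAB11FIP family, which links RAB11 to motors and membranes, as do most of the 8. RAB11FIP2, which binds the motor MYO5B, was 76.2, 68.1 and 67.1 CPM in NC and 79.5, 79.0 and 77.0 CPM in sgKCNQ3. NC replicate 1 came close to the sgKCNQ3 libraries, and the log2 fold change was 0.16 (SE 0.0505, adjusted p 0.0217). RAB11FIP4 was 5.32, 5.87 and 4.92 CPM in NC and 7.16, 7.41 and 6.01 CPM in sgKCNQ3, with a log2 fold change of 0.35 (SE 0.126, adjusted p 0.0367). RAB11FIP5 was 93.3, 100.5 and 95.4 CPM in NC and 85.1, 84.4 and 90.7 CPM in sgKCNQ3, a log2 fold change of -0.15 (SE 0.0461, adjusted p 0.0142). Both rises were lost with length and GC trends removed (RAB11FIP2 0.03, adjusted p 0.640, and RAB11FIP4 0.26, adjusted p 0.118), while RAB11FIP5 was at -0.18 there (adjusted p 0.00106). Without sgKCNQ3 replicate 1, 0 of the 3 were called. RAB11FIP2 also lost its call without NC replicate 2 or 3, RAB11FIP4 without NC replicate 1 or 3 or sgKCNQ3 replicate 2, and RAB11FIP5 without NC replicate 2. RAB11FIP1 was at 0.09 (adjusted p 0.0767), RAB11FIP3 at -0.02, the RAB3 GAP subunits RAB3GAP1 and RAB3GAP2 at -0.05 and 0.04, and RAB3IP, an exchange factor of RAB8, at 0.05. Of the genes counted apart, RAB5IF was 175, 185 and 179 CPM in NC and 163, 159 and 166 CPM in sgKCNQ3. It fell by 0.14 on the log2 scale (SE 0.0396, adjusted p 0.00814), a call lost with the trends removed and on TPM. The readthrough gene TGIF2-RAB5IF covers 39.3% of the exon bases of RAB5IF and held at most 6.6 counts in a library. RAB3IL1, an exchange factor of RAB3A, was at -0.19 (adjusted p 0.205).

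Close relatives were set against each other by their count ratio within a library, which does not depend on the library scaling. Of 17 pairs of kin, the ratio overlapped between the groups in 9 and did not in 8. For single genes, CPM values did not overlap in 41.7% of all tested genes. No such share was computed for ratios of other gene pairs, so the count is not read as a result about relatives. The RAB3 and RAB5 genes stand in several pairs, which are therefore not separate observations. The 5 pairs given here were picked among the 8 after their values were seen. RAB8B had 0.283, 0.267 and 0.281 counts per RAB8A count in NC and 0.400, 0.334 and 0.387 in sgKCNQ3, higher in all 3 libraries. The RAB8A counts may hold reads of the gene on its opposite strand. RAB31 had 0.413, 0.461 and 0.396 counts per RAB22A count in NC and 0.553, 0.555 and 0.554 in sgKCNQ3, again with no overlap. RAB27B had 1.49, 1.48 and 1.46 counts per RAB27A count in NC and 2.36, 1.98 and 2.41 in sgKCNQ3. RAB11B had 0.621, 0.662 and 0.607 counts per RAB11A count in NC and 0.564, 0.513 and 0.530 in sgKCNQ3, a fall. RAB40C went from 1.94 ± 0.204 to 1.42 ± 0.162 counts per RAB40B count. Among the 9 pairs that overlapped were RAB2B and RAB2A, RAB4B and RAB4A, RAB5C and RAB5A, RAB6B and RAB6A, and RAB9B and RAB9A. No p was computed for single ratios. An exact permutation test of 3 against 3 cannot go below 0.1, and no other test was run on them.

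Some of these shifts went with base composition. Transcript GC was 37.2% for RAB11A and 63.5% for RAB11B, 36.2% for RAB8B and 54.0% for RAB8A, and 38.3% for RAB1A and 61.1% for RAB1B. In these 3 pairs, those of the 17 with the widest GC gap, the GC-poor relative had the higher fold change. Over the 17 pairs this was so in 11, and in 6, RAB31 and RAB22A among them, the GC-rich relative had the higher one. When the trends over transcript length and GC were taken out library by library, the log2 difference of RAB11B against RAB11A went from -0.23 to -0.04 and that of RAB1B against RAB1A from -0.15 to -0.04. The differences of RAB8B against RAB8A (0.43 and 0.30), RAB27B against RAB27A (0.60 and 0.49) and RAB31 against RAB22A (0.39 and 0.51) stayed at 0.30 or more.

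Over the 51 GTPases, Spearman's rho of log2 fold change with GC was -0.252 (-0.0184 after the correction) and with transcript length 0.175 (-0.0809 after). This is a description across genes, which share libraries and are not independent replicates. Over 12509 genes the same rho values were -0.262 and 0.321. The median GC was 38.4% for the 9 higher, 57.2% for the 9 lower and 46.3% for the 33 uncalled GTPases. With the trends removed, 14 GTPases were called, 5 higher and 9 lower, against 26.5% of all genes. Of these, 11 were also called without the correction. RAB27B (0.69, adjusted p 2.9e-09), RAB3B (-0.69, adjusted p 2.08e-10) and RAB43 (-0.34, adjusted p 9.24e-05) were among them. RAB21 (-0.27), RAB26 (0.42, adjusted p 0.0144) and RAB18 (-0.15, adjusted p 0.0025) were called only then. RAB1B, RAB4A, RAB6B, RAB11A, RAB27A, RAB33B and RAB40C were called only without it. Whether the trends arose in the cells or in the library preparation was not tested.

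Genes that load, switch or receive the RABs were counted in 14 lists, 305 tested genes in all without the RAB members. Of these, 46 were higher and 42 lower, or 28.9%, against 29.1% of all tested genes, and their median log2 fold change was 0.00. Over all tested genes 14.0% were higher and 15.1% lower, and the counts by list below stand against these shares. In the machinery that prenylates and recycles RABs, 2 of 8 were higher and 3 lower (median -0.09). RABGGTB, the catalytic subunit of RAB geranylgeranyl transferase, was 49.5 ± 0.122 CPM in NC and 40.1 ± 2.36 CPM in sgKCNQ3 and fell by 0.30 on the log2 scale (SE 0.0561, adjusted p 2.4e-04), and its partner subunit RABGGTA was at -0.25 (adjusted p 0.00884). The escort protein CHM, which presents new RABs to that enzyme, rose by 0.24.

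Of 34 RAB exchange factors 5 were higher and 5 lower (median -0.04), among them DENND4C, an exchange factor of RAB10 (0.42), and RABGEF1, an exchange factor of RAB5 (-0.27). Of 37 TBC-domain GAPs 8 were higher and 3 lower (median 0.03), with TBC1D9 at 0.46, USP6NL, a GAP of RAB5, at 0.40, TBC1D5, a GAP of RAB7, at 0.34 and TBC1D4, a GAP of RAB10, at 0.34. Of 12 genes listed with the effectors of RAB27 and RAB3, 2 were higher and 3 lower (median -0.08). EXPH5, a RAB27 effector also called SLAC2-B, was 23.2 ± 1.66 CPM in NC and 17.1 ± 0.778 CPM in sgKCNQ3 and fell by 0.44 on the log2 scale (SE 0.0766, adjusted p 1.29e-04). UNC13D, which primes granules with RAB27A, was at -0.29 and RIMS2, a RAB3 effector, at -0.57, while the motor MYO5A was at 0.19. The second higher gene, RIMS3, was at 0.38 (adjusted p 0.0499) and is named after its value was seen. It is counted by its place in the list, and whether it binds RAB3 was not examined. Of 30 effectors of RAB5, RAB7, RAB8 and RAB11, 6 were higher and 4 lower (median 0.04), with APPL1, a RAB5 effector, at 0.29 and MICALL1, a RAB8 and RAB35 effector, at -0.28.

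In the tethers, 2 of 9 exocyst subunits (EXOC6 0.20 and EXOC2 0.18), 1 of 10 HOPS and CORVET subunits (VPS41 0.15) and 5 of 23 golgins and COG subunits were higher, and 0 in these 3 lists were lower. The golgins TRIP11 (0.28), GCC2 (0.27), USO1 (0.16) and TMF1 (0.16) lost their calls with length and GC trends removed. TRAPP, the exchange factor of RAB1, had 2 higher (TRAPPC8 0.19 and TRAPPC10 0.15) and 1 lower (TRAPPC4 -0.24) of 14. Of 16 COPII genes 3 were higher and 3 lower, with SEC31B at 0.93 (SE 0.228, adjusted p 0.00301) from a low mean of 1.23 CPM in NC. Of 17 genes of the COPI coat and ARF 0 were higher and 5 lower, by at most 0.21 (ARFGAP2). That is 29.4% called, near the share of all tested genes. Of 32 clathrin and adaptor genes 2 were higher and 5 lower, with the adaptor subunits AP1M1 (-0.24) and AP2B1 (-0.13) the most significant. Of 19 retromer and sorting nexin genes 3 were higher, all of the WASH complex (WASHC4 0.23, WASHC5 0.18 and WASHC2C 0.17), and 1 lower (SNX5 -0.14). Of 48 SNAREs and their regulators 5 were higher and 9 lower, with SCFD1 (-0.26), STX18 (-0.28), both of ER and Golgi transport, and VAMP2 (-0.26) among the lower ones. The medians of all 14 lists lay within 0.09 of 0.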

How the data were processed

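The labels put 3 libraries in NC and 3 in sgKCNQ3, by title. The deposited table holds the authors' estimated counts (expected counts per gene, not normalized; 5.53% to 6.33% per library not whole), per the file headers. The authors' TPM and FPKM values, a signal column (counts divided by 1 factor per library) and a score (rounded group means) stand beside them, and of these only TPM was used. Per the submitters' processing notes, reads were placed on GRCh38.p13. Aligner, counter and strand handling were not given in the sources used here, so reads of overlapping antisense genes cannot be told apart.

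Counts were rounded and tested over all genes with edgeR 4.0.16 (R 4.3.3): filterByExpr defaults (minimum count 10; 12565 genes kept, 3635 removed), TMM, robust quasi-likelihood F tests, Benjamini-Hochberg adjustment, threshold 0.05. The biological coefficient of variation was 3.62%. No libraries agreed within sampling noise (chi-square per degree of freedom 1.63 to 4.17 within groups, 6.86 to 11.3 between them), so none were merged. The procedure was also run on simulated counts with the same coefficient of variation for every gene and no length or GC trends. That run does not cover the trends seen in these data.

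The members, roles and lists were chosen with earlier results of these data known. The naming rule allowed every member, with values per library for called members and the most abundant member of each role, and per list up to 4 called genes with the smallest p. A gene that this rule takes is not reported here. Alternatives were scaling by RLE or by library size, the tools DESeq2 1.42.0, limma-voom and limma-trend on log2(TPM + 1) (limma 3.58.1), filters of none or of at least 2 CPM in 3 libraries, a block by replicate number, length and GC trends removed (splines, 5 degrees of freedom; longest coding transcript of GENCODE release 29), and each library left out. Coding ends and overlaps came from GENCODE release 29 on GRCh38, promoters from RefSeq on GRCh38.p14. Figures were drawn with matplotlib 3.10.9.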

Additional observations from a re-analysis of the deposited data

How the results depend on the processing

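The 18 called GTPases became 9 in DESeq2 (3 higher, 6 lower, all among the 18), 12 with a replicate block and 10 to 16 with a library left out (11 without NC replicate 1, 10 without NC replicate 3, 11 without sgKCNQ3 replicate 3), and were 14 to 21 in the other alternatives. On log2(TPM + 1) 18 were called too, but 11 of these were among the 18, and the median of the 51 moved from 0.04 to 0.13. The 3 called effectors became 1 in DESeq2, 1 with length and GC trends removed and 0 to 3 with a library left out (1 without NC replicate 2, 1 without NC replicate 3, 0 without sgKCNQ3 replicate 1). Over all genes the 3658 calls became 2448 in DESeq2, 3136 with the block and 2687 to 3471 with a library left out. Same-numbered libraries did not deviate together (r 0.0136, -0.0978 and 0.00776), so the replicate numbers give no pairing. The block together with length and GC trends removed was planned only for paired numbers. It was fitted over all genes, RAB members included, and called 3165. Its values for the members were left out here and are not among the 15 alternatives.

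Of 911 log2 fold changes of members under alternatives, 44 changed sign, in 21 members, none of them called with either sign. With length and GC trends removed these were RAB2B -0.0022, RAB30 -0.034, RAB5A -0.00028, RAB5B -0.0036, RAB5C 0.0052, RAB12 0.018, RAB32 0.047, RAB14 -0.015, RAB11FIP1 -0.012, RAB11FIP3 0.0024, RAB3GAP2 -0.096 and RAB3IP -0.095. With library size scaling they were RAB1A 0.027, RAB12 0.030, RAB32 0.011 and RAB11FIP3 0.017, and on TPM RAB18 0.026, RAB1A 0.078, RAB5C 0.019, RAB12 0.072, RAB32 0.048, RAB38 0.17, RAB11FIP3 0.036 and RAB3GAP1 0.041. With a library left out the ranges were RAB11FIP3 -0.059 to 0.024, RAB12 -0.082 to 0.065, RAB1A -0.026 to 0.0034, RAB28 -0.20 to 0.0056, RAB2B -0.072 to 0.092, RAB32 -0.045 to 0.013, RAB36 -0.011 to 0.26, RAB38 -0.17 to 0.033, RAB3A -0.36 to 0.029, RAB3GAP2 -0.00081 to 0.089, RAB4B -0.077 to 0.15, RAB5A -0.021 to 0.034 and RAB9B -0.0064 to 0.16. The causes were not tested. Calls were lost in 90 values and gained in 25. Members under about 1 CPM are limited by depth.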

Other observations

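Libraries did not contribute evenly to the spread within groups. Among the 51 tested GTPases, the library farthest from the median of its group was NC replicate 2 in 27 genes (52.9%), against 40.7% of all tested genes. In sgKCNQ3 it was replicate 2 in 22 genes (43.1%), near its share of 41.9% of all tested genes. sgKCNQ3 replicate 1 was the farthest in 20 genes (39.2%), against 26.6% of all tested genes. For RAB1B, RAB13, RAB27A, RAB8A and RAB11B, genes picked after their values were seen, sgKCNQ3 replicate 2 stood apart from the other libraries of its group.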
